A study of Mus musculus with 2 samples.

Results

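Calcium channels, stores and pumps were described from RNA-seq of bone marrow cells in 2 cultures, as 10 genes chosen by name for their roles in calcium entry, release and removal. The genes are Trpv2, Trpv4, Orai1, Stim1, Itpr1, Itpr2, Itpr3, Atp2a2, Atp2b1 and Atp2b4, of 15169 mouse genes with a measured locus, and each of the 10 was measured in both libraries from loci assigned to it alone. The bone marrow cells carried the WT genotype and received M-CSF for 2 days. One culture then stayed on M-CSF alone (M), and the other received M-CSF and RANKL (MR) for 2 days according to the sample labels. The culture method of the study gives 3 days with RANKL, and the day on which the RNA-seq cells were taken, the number of animals and their age are not given in the sources used here. RANKL (receptor activator of NF-κB ligand) is the cytokine that turns M-CSF-dependent precursors into osteoclasts, the multinucleated cells that resorb bone. No sort of the marrow cells is described, and there was 1 library for each culture, so that no p-value was computed and each difference describes these libraries without a replicate check.

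In osteoclast precursors, RANKL together with receptors that signal through immunoreceptor tyrosine-based motifs activates phospholipase C, which makes inositol trisphosphate (IP3). IP3 opens receptors in the membrane of the endoplasmic reticulum (ER) and releases stored calcium. Emptying of the store is sensed by STIM proteins, which open Orai channels in the plasma membrane. Calcium is then pumped back into the ER by SERCA and out of the cell by PMCA pumps. The resulting oscillations activate calcineurin and, through it, the transcription factor Nfatc1, the master regulator of osteoclast differentiation. TRPV channels are a further entry route that does not need an emptied store.

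Levels are given as TPM (transcripts per 1000000 transcripts), which corrects for gene length and library size and can be compared between genes. A gene's TPM is the sum over its assembled loci, and the log2 ratio is that of MR to M after adding 1 to each TPM. A gene with no assembled locus in a library was counted at a TPM of 0 there, which is not a measured 0. A gene was counted as past the fold when this ratio was above 1 or below -1. A gene counted at 0 in 1 library and above 1 TPM in the other is past the fold by construction. In brackets stands a 95% interval for the log2 ratio, from read pairs estimated from FPKM (fragments per kilobase and per 1000000 fragments) and the length of the shortest coding transcript, and it covers counting error only.

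Of the 10 genes, Atp2b4 and Itpr3 were higher in MR past the fold and Trpv4 was lower. The other 7 had log2 ratios between -0.46 and 0.68. In all, 4 genes had a higher TPM in MR and 6 a lower one, with a median log2 ratio of -0.14. Among the 13464 genes tested, 21.2% were above 1 and 13.3% were below -1, with a median of 0.21 and quartiles of -0.42 and 0.84. The 2 genes above 1 are 20% of the 10 and the 1 gene below -1 is 10%. With the longest locus of each gene, or a mean over its loci, Itpr1 was also below -1 and the latter count was 2 of 10. With coverage per aligned Gb in place of TPM, Stim1 was also above 1 and the count above 1 was 3 of 10. TPM was at least 10 for 8 of the 10 genes in each library.

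**Figure D1:**
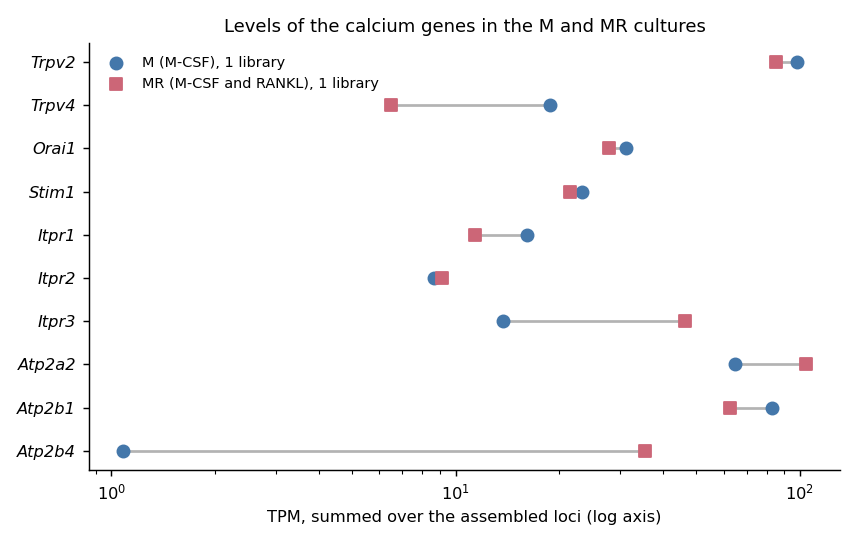
TPM of each of the 10 genes in M (circles) and MR (squares), 1 library each, on a log axis, ordered by role from entry to removal. Atp2b4 moved from 1.08 to 35.5 TPM, Itpr3 from 13.7 to 46.4 and Trpv4 from 18.9 to 6.50, while the other pairs lie within 1.61-fold of each other.

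The cultures differed in their cell markers, which were read from gene lists. All 10 osteoclast markers were past the fold and higher in MR, summing to 126 TPM in M and to 25157 TPM in MR. Of these, 5 were counted at 0 in M, which by itself puts a tested gene past the fold. Of 7 monocyte and macrophage markers, 6 were lower in MR, 3 of them past the fold, and the list summed to 20294 TPM in M and to 7902 TPM in MR. Lyz2, from a locus shared with another coding gene, held most of this, and the other 6 summed to 4259 and 3368 TPM. Neutrophil markers were lower in MR for 7 of 8, 0 of them past the fold (summed TPM 1365 and 953). Megakaryocyte and platelet markers were lower for 4 of 5, 2 of them past the fold (541 and 72.9), with Pf4 alone at 504.6 and 38.4 TPM. Lymphoid, stromal, erythroid, mast cell and dendritic lists summed to at most 24.8 TPM in either library. In bulk RNA, fewer cells of a type and less RNA per cell cannot be told apart, and the part of these cell types in the values of the calcium genes was not tested. The aligned bases were inferred from the commonest ratio of coverage (read depth per base) to FPKM, as 3.63 Gb in M and 2.98 Gb in MR. That ratio held for 40.8% of entries with an FPKM above 5 in M and 42.9% in MR. The study states about 3 Gb of raw reads for each sample, below the value inferred for M.

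The entry channels of the TRPV family were led by Trpv2 in both cultures. Trpv2 (ENSMUSG00000018507.16, GRCm38 chr11:62574486-62600515, plus strand) encodes a calcium-permeable cation channel of the plasma membrane and endosomes. Its TPM was 98.1 in M and 85.2 in MR, with a log2 ratio of -0.20 (-0.32 to -0.09) on 1455 and 998 estimated read pairs. The library with RANKL was thus slightly lower, and 32.4% of all genes had a lower ratio. Trpv2 made up 83.9% of the summed TPM of the TRPV family in M and 91.5% in MR.

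Trpv4 (ENSMUSG00000014158.12, chr5:114622152-114658421, minus strand) encodes a cation channel opened by osmotic swelling, warmth and lipid ligands. It was measured at 18.9 TPM in M and 6.50 TPM in MR, which is 2.90-fold lower with RANKL. The log2 ratio was -1.40 (-1.74 to -1.05) on 242 and 66 read pairs, the lowest of the 10 genes, and 7.92% of all genes had a lower one. The whole interval lay below -1, and the ratio stayed below -1 under all 8 other settings of unit, scaling and locus (-1.54 to -1.32). Its share of the TRPV family was 16.1% in M and 6.98% in MR. Trpv3 had no locus in M and was at 1.45 TPM in MR, and Trpv1, Trpv5 and Trpv6 had no locus in either library. The assembled Trpv4 locus began 16 bases inside the annotated gene start in M and 50 bases inside it in MR, so that both loci began close to the annotated start. The promoter there is shown because Trpv4 was the 1 gene of the 10 that was lower past the fold. It spans chr5:114658372-114658671 on the minus strand of GRCm38.p6 (RefSeq), from 250 bases before to 50 bases after the start.
Trpv4: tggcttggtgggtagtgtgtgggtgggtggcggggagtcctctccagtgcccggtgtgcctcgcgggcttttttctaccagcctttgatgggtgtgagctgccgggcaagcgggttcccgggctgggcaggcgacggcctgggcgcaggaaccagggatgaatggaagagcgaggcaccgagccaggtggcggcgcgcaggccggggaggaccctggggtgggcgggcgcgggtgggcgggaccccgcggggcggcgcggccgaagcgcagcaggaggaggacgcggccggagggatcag
The window is 73% G and C with 30 CG dinucleotides, against a median of 52.7% and 7 over 32851 mouse promoters of the same length. None of the 5 motifs searched on both strands was in it, so that no letter is in capitals. The NFAT core motif GGAAA is in 61.3% of all promoters, the AP-1 motif TGANTCA in 7.81% and the E-box motif CACGTG in 7.15%. The PU.1 core motif GAGGAA is in 28.3% of them, and can overlap GGAAA, and the TATA box motif TATAAA is in 13.6%.

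The store-operated entry genes Orai1 and Stim1 differed little in TPM between the cultures. Orai1 (ENSMUSG00000049686.14, chr5:123015074-123030456, plus strand) encodes the pore of the store-operated channel. It was at 31.2 TPM in M and 27.9 TPM in MR, with a log2 ratio of -0.16 (-0.43 to 0.10) on 259 and 182 read pairs. The interval includes 0, and with coverage per aligned Gb in place of TPM the log2 ratio was 0.00. Stim1 (ENSMUSG00000030987.5, chr7:102267806-102437319, plus strand) encodes the calcium sensor of the ER membrane that opens Orai1. Its TPM was 23.3 in M against 21.5 in MR, and the log2 ratio was -0.11 (-0.57 to 0.35).

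The Stim1 value rests on the unit. The deposited coverage (read depth per base) of the Stim1 locus in M was 1.93, whereas its FPKM corresponds to a coverage of 39.2 at the depth of that library. In MR the listed coverage was 22.6 and that from FPKM was 28.5. With listed coverage per aligned Gb, the log2 ratio of Stim1 was 2.48, past the fold and higher in MR, whereas FPKM and all other settings left it between -0.26 and -0.11. A change of Stim1 in either direction is therefore not given here, and the cause of the gap was not tested.

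Within the Orai family the gene past the fold was Orai2, not Orai1. Orai2, a homologue that forms smaller currents and joins Orai1 in mixed channels, was at 16.6 TPM in M and 69.4 TPM in MR, 4.19-fold higher. Orai3 was at 34.2 and 35.3 TPM. The family summed to 81.9 TPM in M and to 132.5 TPM in MR, so that the share of Orai1 was 38.1% in M and 21.0% in MR, while that of Orai2 was 20.2% and 52.4%. Stim2, the sensor with the lower threshold for store emptying, was at 15.4 and 12.7 TPM, and Stim1 made up 60.2% and 62.9% of the pair by TPM. The share in M rests on the Stim1 level that differs between TPM and listed coverage.

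**Figure D2:**
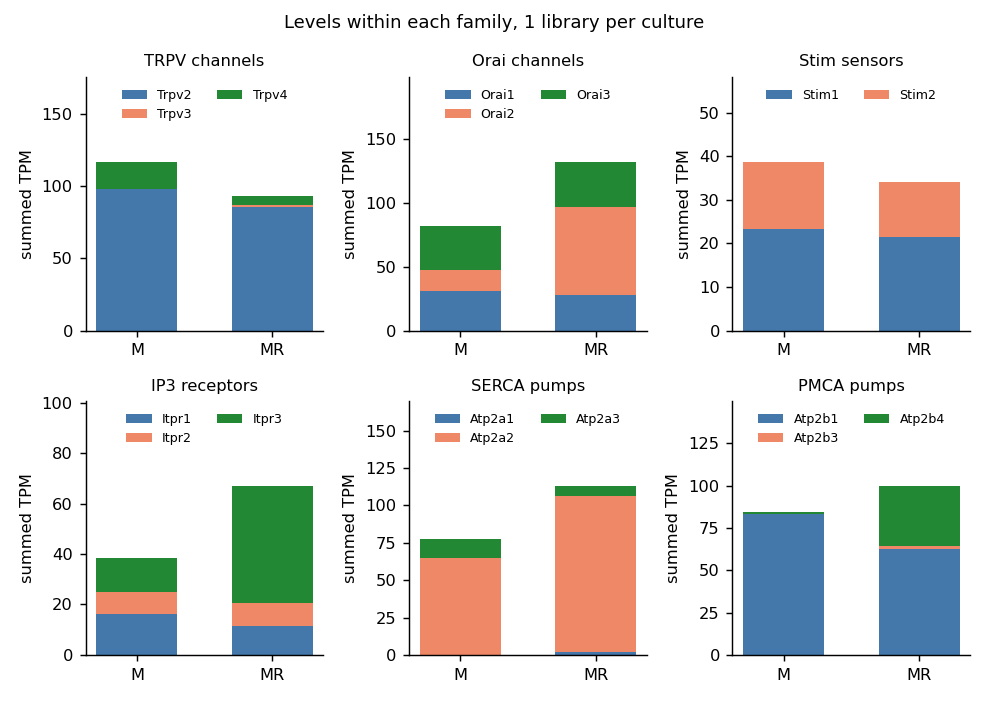
Summed TPM of 6 gene families in M and MR, 1 library each, with 1 colour per gene within a family and genes without a locus left out. Between M and MR, the share of Itpr3 among IP3 receptors went from 35.7% to 69.3%, that of Orai2 among Orai genes from 20.2% to 52.4% and that of Atp2b4 among PMCA pumps from 1.28% to 35.6%. By TPM, Trpv2, Stim1 and Atp2a2 led their families in both libraries. The share of Stim1 in M and those of the IP3 receptors and PMCA pumps rest on the unit, since listed coverage differs from TPM there. By the longest locus the share of Itpr3 in MR was 75.5%.

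The IP3 receptors release calcium from the ER, and Itpr3 made up more of their summed TPM in MR. Itpr3 (ENSMUSG00000042644.9, chr17:27057304-27122223, plus strand) encodes the type with the lowest affinity for IP3. It was at 13.7 TPM in M and 46.4 TPM in MR, 3.39-fold higher with RANKL. The log2 ratio was 1.69 (1.57 to 1.81) on 690 and 1844 read pairs, and 90.2% of all genes had a lower one. It stayed above 1 under all 8 other settings, and listed coverage gave the lowest value, 1.25. The listed coverage of Itpr3 was 8.37 in M and 20.5 in MR, under the 23.0 and 61.5 to which its FPKM corresponds, and it would give 251 and 615 read pairs. In M, Itpr1 (16.1 TPM) came first of the 3 receptors, Itpr3 next and Itpr2 (8.66 TPM) last. In MR Itpr3 came first, with 69.3% of a summed TPM of 67.0, against 35.7% of 38.5 in M. By the longest locus the share of Itpr3 in MR was 75.5%. By listed coverage the same receptor came first in each library, but the shares differ. Itpr1 was at 18.6 in M and 12.4 in MR, and Itpr2 at 6.57 and 7.16.

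Itpr1 (ENSMUSG00000030102.11, chr6:108213096-108551109, plus strand) encodes the type best known from neurons. Its TPM was 16.1 in M, from 1 locus with 99.5% of the exon bases of the gene. In MR the gene was assembled as 2 loci, of 5.49 TPM with 6.28% of the exon bases and of 5.91 TPM with 93.5%, with 131 bases between them. Their sum of 11.4 TPM gives a log2 ratio of -0.46 (-1.13 to 0.22). That interval rests on 41 and 23 read pairs, from a coding transcript of 454 bases. On the longest coding transcript, with 889 and 497 read pairs, the interval is -0.61 to -0.32 and does not include 0. A sum over pieces of 1 gene can overstate its level, since TPM is already per length. With the longest locus alone the log2 ratio was -1.31, as it was with a mean over loci weighted by exon bases at 5.88 TPM (an alternative added once the data had been seen). Itpr1 was lower in MR under all 8 other settings, and past the fold in those 2. Its share of the IP3 receptors in MR was 17.0% by the sum and 9.61% by the longest locus.

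Itpr2 (ENSMUSG00000030287.15, chr6:146108299-146502223, minus strand) encodes the type with the highest affinity for IP3. It was at 8.66 TPM in M against 9.16 TPM in MR, and the log2 ratio was 0.07 (-0.65 to 0.75). The sign turned with the scaling, to -0.07 with median-of-ratios scaling and to -0.02 without mitochondrial and the 20 most abundant genes, so that no direction is given. In M alone, 2 loci of 1.15 and 1.79 TPM were assembled on the other strand within Itpr2, over 428 and 537 of its exon bases. The library kit is not stated to mark strand, and reads from either strand cannot be told apart there.

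Both Itpr3 loci began upstream of the annotated gene, 19476 bases in M and 19472 bases in MR, and thus within 4 bases of each other. The Itpr3 promoter in RefSeq is shown for that reason and because Itpr3 was the receptor that was higher past the fold. It spans chr17:27057054-27057353 on the plus strand of GRCm38.p6, with the E-box letters CACGTG in capitals.
Itpr3: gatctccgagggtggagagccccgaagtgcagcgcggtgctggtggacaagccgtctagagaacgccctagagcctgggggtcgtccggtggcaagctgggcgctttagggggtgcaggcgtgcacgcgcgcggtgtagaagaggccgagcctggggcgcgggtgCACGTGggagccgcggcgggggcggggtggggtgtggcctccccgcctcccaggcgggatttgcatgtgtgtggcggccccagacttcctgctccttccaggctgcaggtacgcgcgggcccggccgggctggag
This window is 72.3% G and C with 30 CG dinucleotides, and the other 4 motifs were not in it. The files give no reads per base, so that it cannot be said how much of the Itpr3 signal came from each start.

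SERCA pumps refill the store, and Atp2a2 was the main one. Atp2a2 (ENSMUSG00000029467.15, chr5:122453513-122502225, minus strand) encodes SERCA2, the form found in most cells. It was at 64.8 TPM in M and 104.3 TPM in MR, 1.61-fold higher, and it was the most abundant of the 10 genes in MR. The log2 ratio of 0.68 (0.58 to 0.78) on 1446 and 1837 read pairs was above that of 70.2% of all genes and did not reach 1. It lay between 0.52 and 0.69 under the other settings. Atp2a2 made up 83.6% of the SERCA sum in M (77.5 TPM) and 92.3% in MR (113 TPM), while Atp2a3, the form typical of blood cells, was at 12.7 and 6.42 TPM. Atp2a1, the form of fast muscle, had no locus in M and was at 2.26 TPM in MR.

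A short locus on the other strand overlapped the first exon of Atp2a2 in MR only. It was 699 bases long, held 657 exon bases of Atp2a2, and was listed at 108.9 TPM with a coverage of 144.4, against 90.7 for the Atp2a2 locus itself. It was given to no gene and is not part of the Atp2a2 value. Whether its reads belong to Atp2a2 cannot be told apart without strand.

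PMCA pumps remove calcium across the plasma membrane, and Atp2b4 was measured beside Atp2b1 at a substantial level in MR only. Atp2b1 (ENSMUSG00000019943.10, chr10:98914406-99026143, plus strand) encodes PMCA1, the form present in nearly all cells. It was at 83.2 TPM in M against 62.5 TPM in MR, and the log2 ratio was -0.41 (-0.60 to -0.22) on 570 and 338 read pairs. It was lower in MR under all 8 other settings (-0.56 to -0.39), within the fold. Its listed coverage was 16.4 and 9.59, well under the 139.7 and 82.9 to which its FPKM corresponds, but by a like factor in both libraries.

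Atp2b4 (ENSMUSG00000026463.17, chr1:133699457-133801041, minus strand) encodes PMCA4, a pump also found in mature osteoclasts. It was at 1.08 TPM in M and 35.5 TPM in MR, 32.8-fold higher with RANKL. The M value sums 2 fragments, and it was 0.345 TPM by the longest locus and 0.391 TPM by the weighted mean, which gives 102.8-fold and 90.7-fold. The log2 ratio was 4.13 (2.78 to 5.05), the highest of the 10 genes, and 99.0% of all genes had a lower one. On the shortest coding transcript the interval rests on 1 read pair in M and 38 in MR, and on the longest on 71 and 1838. The shortest lies outside every assembled Atp2b4 locus, and on the longest the interval is 3.94 to 4.30. The ratio lay between 3.40 and 4.91 under the other settings. Atp2b4 made up 1.28% of the PMCA sum of 84.2 TPM in M (0.413% by the longest locus) and 35.6% of 99.8 TPM in MR. By listed coverage in MR, Atp2b4 was at 44.3 and Atp2b1 at 9.59, the reverse of their order by TPM. The share of each in MR thus rests on the unit. Atp2b3 had no locus in M and was at 1.80 TPM in MR, and Atp2b2 had no locus in either library.

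In M, Atp2b4 consisted of 2 fragments far from its start. One had 0.345 TPM and about 6 read pairs. The other had 0.737 TPM, and only 430 of the 2156 bases it spans are exon bases of Atp2b4, with about 2 read pairs on them. Both ends of the first were those that the vM27 annotation gives to Gm37368 on the GRCm39 build. In MR, 1 locus of 9106 exon bases (74.3% of the gene's) began 40 bases inside the annotated start. The start in the RefSeq promoter table lies 47254 bases further in. The assembled MR locus began at the distal start, and the RefSeq window is shown so that the internal start can be compared with the others. A locus covers all transcripts of its gene, so that it cannot be said how much of the Atp2b4 signal came from each start. The window spans chr1:133753698-133753997 on the minus strand of GRCm38.p6, with TTTCC, which is GGAAA on the other strand, in capitals.
Atp2b4: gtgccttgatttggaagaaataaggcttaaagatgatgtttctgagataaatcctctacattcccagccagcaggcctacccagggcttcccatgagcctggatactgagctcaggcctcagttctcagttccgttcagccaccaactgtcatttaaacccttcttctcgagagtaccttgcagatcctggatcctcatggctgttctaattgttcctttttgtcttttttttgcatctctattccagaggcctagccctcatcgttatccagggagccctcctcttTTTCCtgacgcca
The window is 47.7% G and C with 4 CG dinucleotides, below the medians of all promoters, and the other 4 motifs were not in it. Of the 10 genes, 8 had a window in the promoter table, 11 windows in all, and Itpr1 and Atp2a2 had none.

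**Figure D3:**
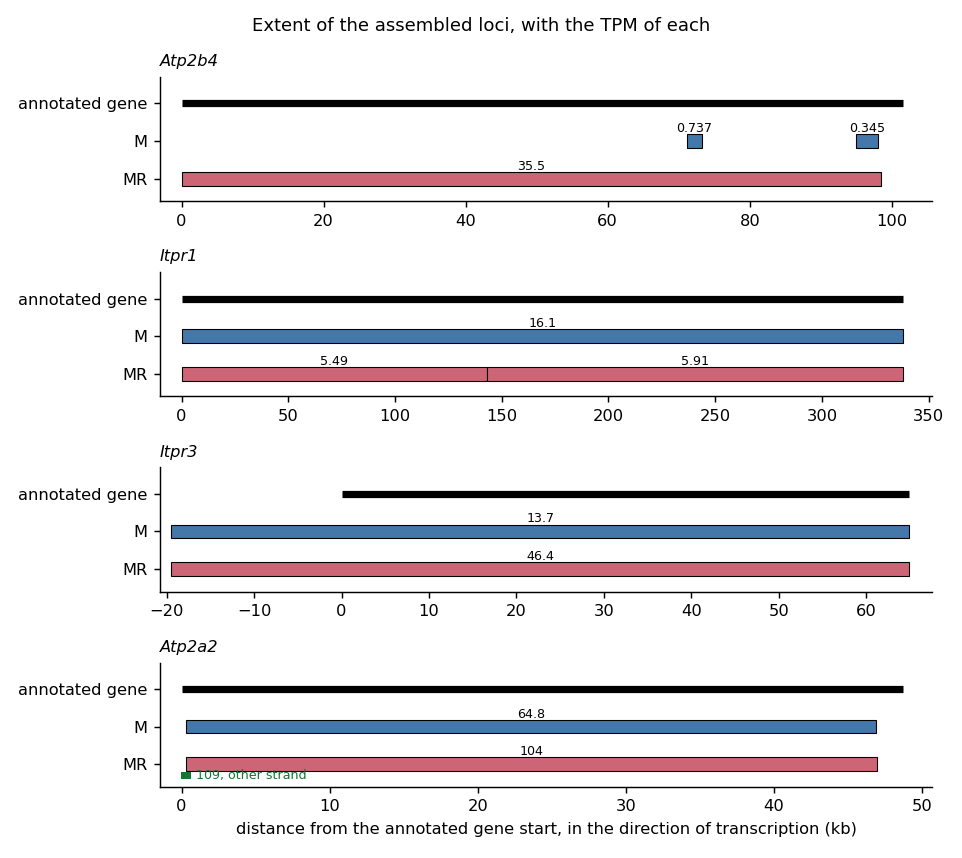
Extent of the assembled loci of Atp2b4, Itpr1, Itpr3 and Atp2a2 in M and MR against the annotated gene (black), as distance in kb from the annotated start in the direction of transcription, with the TPM of each locus above it. Atp2b4 was 2 fragments in M and 1 long locus in MR, Itpr1 was broken in MR, both Itpr3 loci began upstream of the gene, and the green bar marks the locus on the other strand at Atp2a2.

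**Figure D4:**
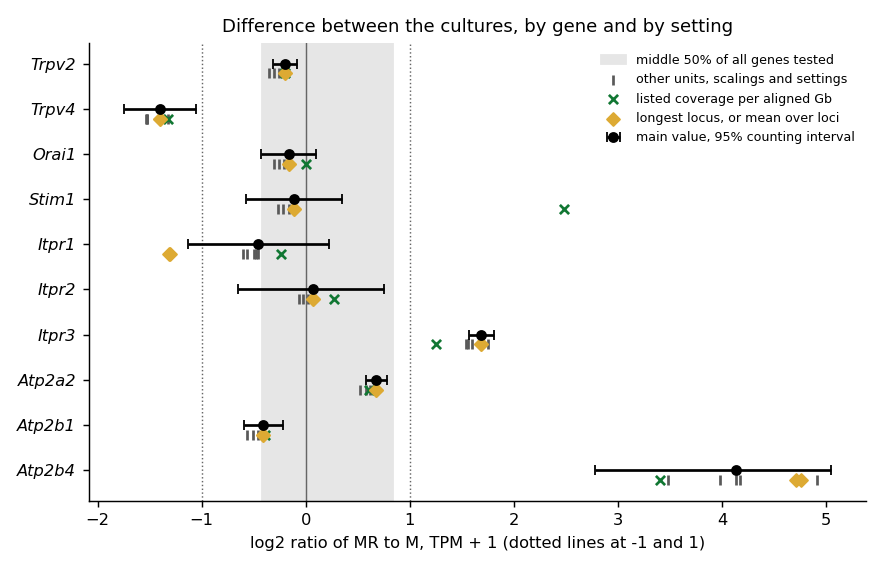
Log2 ratio of MR to M for each gene (black point) with its 95% counting interval, and below it the values under other settings, with listed coverage as green crosses and the locus choices as yellow diamonds. Stim1 leaves the other values only with coverage (2.48), Itpr1 passes -1 with the locus choices (-1.31), and the grey band is the middle 50% of all genes.

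Other genes of calcium handling were read from 7 lists with 88 genes, of which 69 were tested. Of these, 15 (21.7%) were above 1 and 10 (14.5%) below -1, with a median log2 ratio of 0.12. Among the 15, Trpv3, P2rx5, Atp2b3, Atp2a1, Slc24a4 and Camk2a were counted at 0 in M, so that passing the filter put them above 1. The counts over all genes hold such genes too. The counts over all genes leave out genes with a shared locus, here Cracr2b alone. Without it, 15 of 68 (22.1%) were above 1 and 9 (13.2%) below -1, near the 21.2% and 13.3% of all genes. Of the 7 partners of store-operated entry, Orai2 and Cracr2a, a regulator of Orai1 and STIM1 (4.53 and 10.6 TPM, 1.06), were above 1. Cracr2b, its paralogue, was at 36.1 TPM in M and 9.74 TPM in MR (-1.79) from a locus shared with another coding gene. Among 14 other cation channels tested, 2 were above 1 and 4 below -1. P2rx5, an ATP-gated channel, was counted at 0 in M and was at 26.3 TPM in MR. The ATP-gated channels P2rx4 (558 and 85.9 TPM, -2.69) and P2rx7 (67.2 and 14.7 TPM, -2.12) were lower in MR, as was the lysosomal channel Mcoln2 (29.8 and 8.91 TPM, -1.64).

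The enzymes that make and remove IP3, with the ryanodine receptors, had 4 of 10 tested genes above 1 and 1 below -1, with a median of 0.86. Plcb2 (16.0 and 46.6 TPM, 1.48) and Plcb4 (2.09 and 21.2 TPM, 2.85), phospholipases that make IP3, were higher in MR. So were Inpp5a, a phosphatase that removes it (9.26 and 37.9 TPM, 1.92), and Itpkc, a kinase that converts it (5.72 and 14.1 TPM, 1.16). The kinase Itpkb was lower in MR (38.6 and 15.7 TPM, -1.24). Enzymes of making and of removing IP3 were thus among the genes above 1.

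Of 10 other pumps and exchangers tested, 4 were above 1, each under 10 TPM (Atp2b3, Atp2a1, Slc24a4 and Tmem64), and 2 below -1. Of the 4, all but Tmem64 were counted at 0 in M, so that passing the filter put them above 1. The sodium-calcium exchangers Slc8a1 of the plasma membrane (36.3 and 15.9 TPM, -1.14) and Slc8b1 of the mitochondria (91.8 and 20.5 TPM, -2.11) were the 2 that were lower. In the mitochondrial uptake list, Letm1, an ion exchanger of the inner membrane (38.3 and 134.5 TPM, 1.78), was higher and Mcub, the subunit that lowers uniporter current (64.1 and 25.1 TPM, -1.32), was lower. Calu, a calcium-binding protein of the ER lumen (59.2 and 188.4 TPM, 1.65), was the 1 gene of 10 past the fold in its list. Of 10 tested genes of calmodulin and its kinases, 1 was above 1 and 1 below -1. Camk2a, counted at 0 in M and at 7.48 TPM in MR, was the higher, and Camk1d (20.8 and 6.64 TPM, -1.51) the lower.

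**Figure D5:**
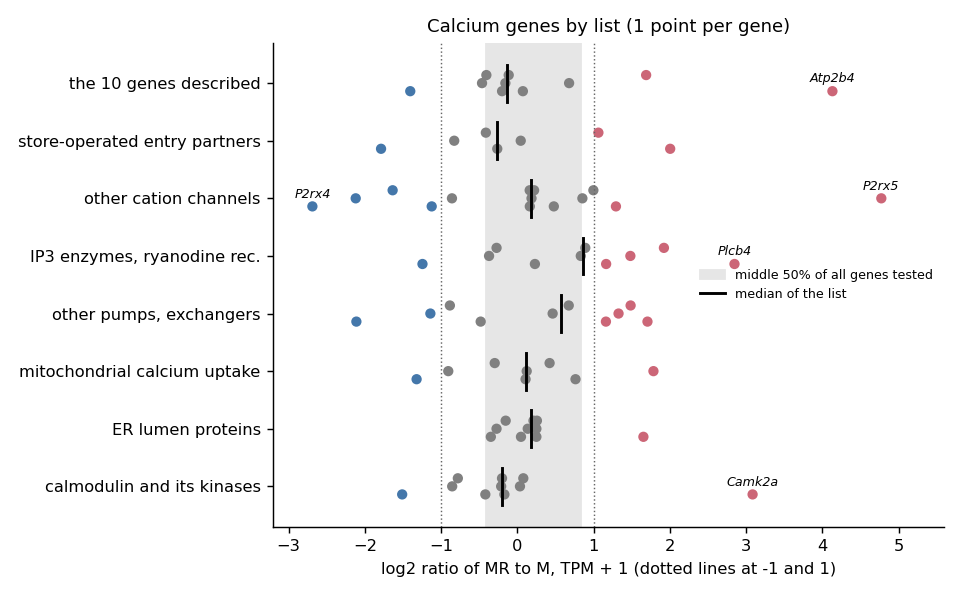
Log2 ratio of MR to M for the tested calcium genes, 1 point per gene, by list, with red above 1, blue below -1, a black line at each list's median and a grey band for the middle 50% of all genes. The medians lie between -0.26 and 0.86, and each list except the ER lumen proteins holds genes past the fold on both sides.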

How the data were processed

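RNA of 2 libraries, M and MR, was analysed. The authors trimmed paired reads of 150 bases with Trim Galore, used HISAT2 for alignment to mm10 (GRCm38) and StringTie with GENCODE vM27, and the tool versions are not given in the sources used here. The deposited tables list, for each entry, a coverage (read depth per base, not normalized for depth), an FPKM and a TPM, and in each table the assembled loci sum to 1000000 TPM. Entries with gene names, at GRCm39 positions, were not used. For each assembled locus, the GENCODE vM21 gene on its strand that had the largest number of exon bases inside it was taken, with 50 as the minimum. Loci with 95.4% of the TPM of M and 96.9% of that of MR were given to genes. A locus was called shared where it also held 50% or more of a further coding gene's exon bases.

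A gene was tested at a TPM of at least 1 in 1 library or more, and counts over all genes took genes with their own locus only, while the lists also took genes with a shared locus (Cracr2b, Itgam and Lyz2). Read counts were not listed. Read pairs were estimated from FPKM, the transcript length and the library depth, taken as the commonest coverage-to-FPKM ratio, with 300 aligned bases per pair, and gave 95% Wilson intervals. The named genes of the wider lists are those past the fold with a TPM of at least 10 in 1 library or more. Genes below that level are named where a family or a count of 5 or fewer called for it. The 10 genes, the lists and the settings were chosen with earlier results of these data known. The locus assignment and ratios were tested on simulated data with 1 whole locus per gene, close to its annotated ends. Broken loci, loci that extend beyond the gene and loci on the other strand were not simulated. The scripts ran in Python 3.11.15, with pandas 2.3.3 and numpy 2.4.6 for tables, scipy 1.17.1 for intervals and matplotlib 3.10.9 for plots. Promoters came from a RefSeq table.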

Additional observations from a re-analysis of the deposited data

Results flagged for a closer look

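Within the extents of the 10 genes, 5 loci that were given to no gene had a TPM in MR above that in M, and they lie outside the comparisons described. On the plus strand at Atp2a2 (chr5:122501569-122502267) the TPM was 108.9 in MR, with no such locus in M, on about 336 read pairs. Its extent falls inside the position that the vM27 annotation gives to Vps29 on the newer build. The other 4 were small and had the same ends as a named entry of that annotation. They were a locus on the plus strand at Atp2b4 (0.110 TPM in MR, none in M), one on the plus strand at Itpr1 (1.65 against 0.442), one on the minus strand at Itpr3 (0.562 against 0.167) and one on the plus strand at Trpv2 (2.60 against 2.42). Each of the 4 rests on at most 4 read pairs in either library.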

How the results depend on the processing

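No paired analysis was possible because there was 1 library per culture, and for the same reason no replicate could be left out. Of 80 log2 ratios of the 10 genes under alternatives, 71 stayed within the counting interval of the main value and 9 left it. That interval uses the shortest coding transcript, which gives the fewest read pairs. No gene past the fold in the main setting changed sign. With coverage per aligned Gb, Stim1 turned from -0.11 to 2.48, and 3 of the 10 genes were higher past the fold. Trpv4, Itpr3 and Atp2b4 were past the fold under every alternative but a log2 threshold of 2, which left 1 of the 10 genes higher (Atp2b4) and 0 lower. The longest locus alone, and the mean over loci, each gave 2 lower genes, with Itpr1 added. Over all genes, a TPM of at least 10 gave 1601 higher and 983 lower of 8680 tested. The main setting gave 2860 and 1784 of 13464, and a threshold of 2 gave 958 and 521 of the same 13464. Of the wider lists, 9 genes in place of 15 were higher with a TPM of at least 10, where fewer genes were tested, with FPKM and with coverage. Over all genes, 2055 were higher with FPKM and 2107 with coverage, in place of 2860. The same 1 was added to coverage per aligned Gb and to FPKM, which was lower than TPM in both libraries. It therefore weighed more on genes of low FPKM. In the wider lists, a threshold of 2 left 4 higher and 3 lower. Median-of-ratios scaling moved the median of all genes by -0.15, to 0.06, and Itpr3 to 1.54, Atp2a2 to 0.52 and Trpv2 to -0.36. Itpr2 has no value at a TPM of at least 10. Without read counts or replicates, the precision of single genes is known only as counting error. Read pairs of Stim1, Itpr1, Itpr2, Atp2b1 and Atp2b4 moved by far more than 1.5 times with the transcript length used. From the shortest to the longest, those in M went from 81 to 570 for Stim1 and from 41 to 889 for Itpr1. They went from 28 to 566 for Itpr2, from 570 to 3319 for Atp2b1 and from 1 to 71 for Atp2b4.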
